A study of Mus musculus with 17 samples.

Results

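The sites described here are stretches of mouse DNA where CHD7 peaks were called in all 8 CHD7 libraries and no RUNX1 peak of any of 8 RUNX1 libraries overlapped by 1 bp or more. They were chosen by those peak calls: peaks of the 8 CHD7 lists were merged into 85219 sites on chromosomes 1 to 19 and X, 4850 of these were called in every list, and 1116 of the 4850 were free of RUNX1. The 1116 are called RUNX1-free constitutive sites below. The other constitutive sites were 1687 that overlapped RUNX1 peaks of all 8 RUNX1 lists and 2047 that overlapped peaks of 1 to 7.

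CHD7 is an ATP-dependent chromatin remodeller of the chromodomain helicase family, which slides nucleosomes and whose chromodomains bind methylated histone tails. It is known from CHARGE syndrome, a disorder of neural crest and other tissues, and is found at enhancers and promoters together with tissue-specific transcription factors. RUNX1 is a DNA-binding factor required for the formation of blood stem cells. It pairs with CBFB, and the leukaemia fusion Cbfb-Myh11 joins CBFB to the tail of smooth muscle myosin.

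The cells were 416B, a mouse myeloid progenitor line. All cells carried a stably integrated plasmid with the silencer tTS, the transactivator rtTA and blasticidin resistance under an Ef1alpha promoter. In CM cells a tetracycline-responsive element drove Cbfb-Myh11 type A cDNA joined through F2A to mCherry, and in Control (Control-ATG) cells that second plasmid had no CM. Lines were grown from single sorted cells, so each construct is read in selected clones, and a difference between constructs and a difference between clones cannot be told apart. The 4 conditions were Control -Dox, Control +Dox, CM -Dox and CM +Dox, where +Dox means 1 µg/ml doxycycline for 24 hours. Each had 2 replicates with each antibody. The IgG sample was not analysed here. Only binding was analysed here, so the cell type was not checked against expressed markers.

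The 8 CHD7 lists held 16319 to 37696 peaks covering 7.20 to 16.7 Mb, and the 8 RUNX1 lists 8140 to 16163 peaks covering 2.98 to 5.77 Mb. Read depth is unknown. The score deposited for a peak (−log10 p, from the peak caller) was used as a rank within a list and not as an amount of binding. The list percentile of a site is the percent of a list's peaks that scored at or below the site's best peak, averaged over the 8 lists. For 1 RUNX1 library, Control -Dox replicate 1, the peaks are named with +Dox against its label, which was kept. Without it 1152 sites met the rule.

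Sites called in more CHD7 lists were less often free of RUNX1, which is a description of how the rule divides the sites. Of sites called in 1 CHD7 list 94.7% had no RUNX1 peak, of those called in 7 lists 40.6% (1097 sites), and of those called in all 8 lists 23.01%. The median distance from a RUNX1-free constitutive site to the nearest RUNX1 peak of any library was 10.8 kb, with quartiles of 2.95 and 30.1 kb. A RUNX1 peak lay within 1 kb of 136 sites (12.2%), and 63 sites lay more than 100 kb from any. Of the sites at gene starts 21.5% had a RUNX1 peak within 1 kb, with a median distance of 17.8 kb, and of distal sites 6.56%, with a median of 10.7 kb.

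Most of the strongest sites lay over promoters, and the letters of some of these are shown first. Windows of 300 bases run from 250 bases before to 50 after an annotated start, on the strand of the gene, 5′ to 3′, from RefSeq on GRCm38.p6, the assembly that mm10 denotes. Capitals mark 2 kinds of letters on either strand: CCGGAAG or CTTCCGG, the core bound by ETS factors, and AGGGGGC (or GCCCCCT) and GGCGCT (or AGCGCC), which are parts of the consensus of CTCF, the insulator protein, and overlap there by GGC, so 1 stretch can hold both. The CTCF letters were searched after these windows had been read. Shown are 5 of the strongest sites and 1 promoter of a mitochondrial ribosomal protein gene, all of them windows that hold such letters. Of the 12 strongest windows 10 hold CTCF letters and 2 hold ETS cores, and both of those 2 are shown. The strongest window, that of Mettl18, holds neither and is not shown. Windows were read for the 5 mitochondrial ribosomal protein genes that had a RUNX1-free constitutive site at the start. Among these, Mrpl53 alone has an ETS core in its window, and the windows of Mrps10, Mrpl44 and Mrpl1 hold no such letters.
Dennd6b, chr15:89196425-89196724, minus strand: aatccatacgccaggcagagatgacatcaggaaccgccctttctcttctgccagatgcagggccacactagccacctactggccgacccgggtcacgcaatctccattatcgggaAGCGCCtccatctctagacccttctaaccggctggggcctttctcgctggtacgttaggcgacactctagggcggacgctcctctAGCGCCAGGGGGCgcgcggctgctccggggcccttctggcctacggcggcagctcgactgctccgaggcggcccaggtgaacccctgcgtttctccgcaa
Asb6, chr2:30828251-30828550, minus strand: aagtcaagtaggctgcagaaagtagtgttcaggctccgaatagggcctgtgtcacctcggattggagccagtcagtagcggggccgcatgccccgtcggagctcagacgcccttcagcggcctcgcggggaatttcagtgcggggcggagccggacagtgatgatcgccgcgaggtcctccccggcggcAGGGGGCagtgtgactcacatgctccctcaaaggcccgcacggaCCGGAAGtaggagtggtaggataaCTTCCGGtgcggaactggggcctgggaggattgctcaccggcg
Nle1, chr11:82908346-82908645, minus strand: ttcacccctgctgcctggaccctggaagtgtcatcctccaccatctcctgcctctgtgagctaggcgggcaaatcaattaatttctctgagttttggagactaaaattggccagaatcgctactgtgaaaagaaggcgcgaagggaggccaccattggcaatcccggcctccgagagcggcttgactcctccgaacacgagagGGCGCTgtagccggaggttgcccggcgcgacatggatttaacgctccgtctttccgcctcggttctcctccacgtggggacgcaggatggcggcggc
Zkscan1, chr5:138084834-138085133, plus strand: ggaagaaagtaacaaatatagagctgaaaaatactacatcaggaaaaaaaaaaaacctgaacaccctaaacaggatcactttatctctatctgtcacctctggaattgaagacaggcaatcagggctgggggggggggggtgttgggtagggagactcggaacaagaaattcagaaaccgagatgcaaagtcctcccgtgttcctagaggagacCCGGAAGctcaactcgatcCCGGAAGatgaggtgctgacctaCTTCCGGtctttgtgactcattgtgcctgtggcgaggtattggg
Ccdc65, chr15:98707944-98708243, plus strand: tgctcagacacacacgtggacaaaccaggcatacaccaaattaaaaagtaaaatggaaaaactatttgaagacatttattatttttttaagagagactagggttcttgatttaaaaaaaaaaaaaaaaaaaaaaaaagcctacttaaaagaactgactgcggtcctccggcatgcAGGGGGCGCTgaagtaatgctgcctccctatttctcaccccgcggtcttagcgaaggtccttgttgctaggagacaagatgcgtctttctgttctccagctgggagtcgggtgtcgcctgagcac
Mrpl53, chr6:83108858-83109157, plus strand: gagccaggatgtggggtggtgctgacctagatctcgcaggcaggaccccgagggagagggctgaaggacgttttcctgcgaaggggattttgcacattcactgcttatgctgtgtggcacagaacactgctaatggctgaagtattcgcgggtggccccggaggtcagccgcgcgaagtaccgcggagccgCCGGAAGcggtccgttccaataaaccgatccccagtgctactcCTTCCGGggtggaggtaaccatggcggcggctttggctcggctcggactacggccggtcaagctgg

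The Dennd6b, Nle1 and Ccdc65 windows hold CTCF letters and no ETS core. The Zkscan1 window holds 3 ETS cores and no CTCF letters. The Asb6 window holds 2 ETS cores and 1 match to the CTCF letters, and the Mrpl53 window holds 2 ETS cores.

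The 10 highest sites at gene starts lay at genes of varied function. The site at BC055324 (chr1:163994508-163995482), which also covers the start of Mettl18, scored 114 and 165 in the 2 Control -Dox libraries, 115 and 182.9 in Control +Dox, 104 and 206 in CM -Dox, and 160 and 189 in CM +Dox. CM +Dox was highest in replicate 1 and not in replicate 2. The Dennd6b site (chr15:89195850-89196815), at a gene for an exchange factor of RAB GTPases, scored 87.6 and 131 in Control -Dox cells, 74.9 and 135 in Control +Dox, 68.7 and 151 in CM -Dox, and 109 and 162 in CM +Dox. CM +Dox was highest within both replicate numbers.

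The Asb6 site (chr2:30828077-30828603), at a gene for a ubiquitin ligase adaptor, scored 85.5 and 139, 80.6 and 111, 78.6 and 157, and 87.1 and 129 in the same order of conditions. The site of Nle1 (chr11:82908187-82908666), needed for assembly of the large ribosomal subunit, scored 67.5 and 112, 59.1 and 125, 66.0 and 128, and 66.3 and 121. CM +Dox was highest within both replicate numbers at neither gene. The other 6 of the 10 strongest gene-start sites lay at Rab12 (a RAB GTPase), Mipep (a peptidase of the mitochondrial matrix), Rbm17 and Ddx46 (pre-mRNA splicing), Zkscan1 (a zinc finger factor) and Ccdc65 (a protein of motile cilia), with mean list percentiles of 99.51 to 99.63.

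Distal sites, more than 5 kb from every coding gene start and end, had 1 site as strong as any promoter. It lay inside Diaph1, a formin that nucleates actin, 39.4 kb from the nearest start. It scored 121 and 194 in Control -Dox cells, 118 and 190 in Control +Dox, 119 and 231 in CM -Dox, and 148 and 217 in CM +Dox, and its mean list percentile of 99.98 was the highest of the 1116. Next came sites near Rgs9 (42.0 to 81.5 over the 8 libraries), in Pdzd2 (35.1 to 92.9) and near Tafa3 (39.0 to 91.4). The remaining 6 of the 10 strongest distal sites lay in or near Max, Sec14l1, Ksr1, Mapkap1, Itpr2 and Phf21a, with mean list percentiles of 97.54 to 98.50.

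All 20 of these named sites scored higher in replicate 2 than in replicate 1 of each of the 4 conditions. The height of a score followed the library, so scores of a condition overlap across replicates and orders within a replicate are of scores from lists of unequal length. Ranks are used in the comparisons below.

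**Figure D1:**
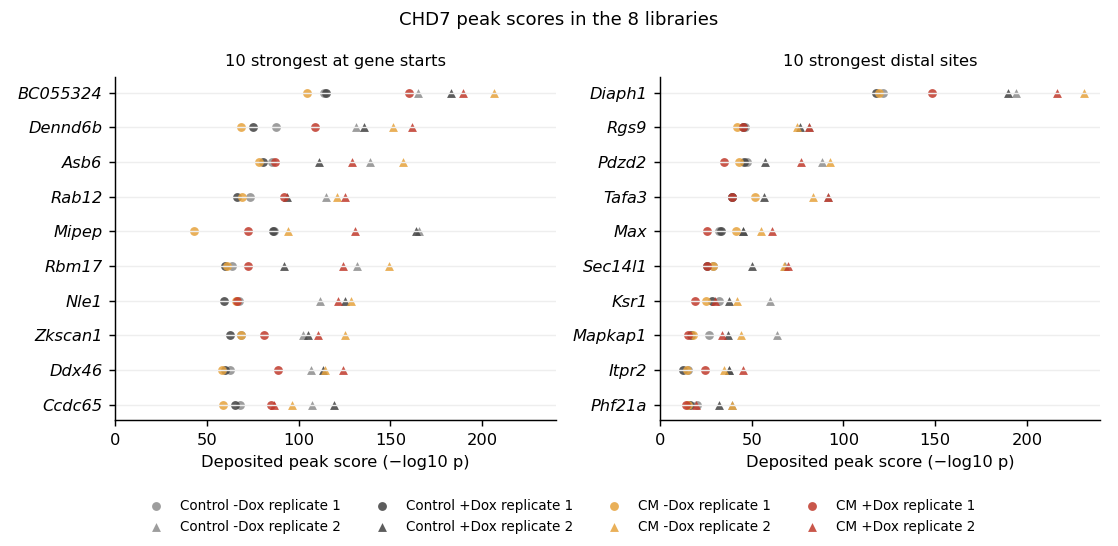
Deposited CHD7 peak scores (−log10 p, horizontal axis) of the 10 strongest RUNX1-free constitutive sites at gene starts (left) and the 10 strongest distal sites (right). Each point is 1 library, circles are replicate 1 and triangles replicate 2, and colours are conditions; replicate 2 lies to the right of replicate 1 in every condition at all 20 sites, and Diaph1 lies apart from the other distal sites.

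The strongest of the 1116 sites lay mostly at promoters, and the weaker ones mostly away from them. In all, 376 (33.7%, Wilson 95% interval 31.0 to 36.5, counting error only) lay within 1 kb of a coding gene start, 564 (50.5%) were distal, and 176 lay in between. For 61 of the 376 the nearest start was an end of a gene whose strand was not in the reference. The gene-start share was 36.1% (33.8 to 38.4) of sites with RUNX1 in all 8 lists, 19.96% of RUNX1-free sites called in 7 CHD7 lists, and 13.03% of all 85219 merged sites. The first 2 intervals overlap. Of 317 RUNX1-free sites at an annotated coding start, 34 (10.7%, 7.78 to 14.6) covered the starts of 2 or more genes, as did 18.02% (14.9 to 21.6) of 516 such sites with RUNX1 in all 8 lists and 10.8% over all merged sites.

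Split into 5 equal groups by mean list percentile, the highest group (93.7 to 99.98) had 179 of 223 sites at gene starts, or 80.3%, and a median width of 589 bp. The rest of the 376 gene-start sites, more than these 179, lay in the other 4 groups. The other 4 groups had 19.3% to 28.1% at gene starts, 52.7% to 64.1% distal, and median widths of 962 to 1053 bp. The same split of sites with RUNX1 in all 8 lists gave 53.4% at gene starts in the highest group and a median width of 1450 bp. Of 112 RUNX1-free sites with a score of 15 or more in every library, 100 lay at gene starts (89.3%), against 96% of 125 such sites with RUNX1 in all 8 lists. These are descriptions, since scores and calls come from the same lists.

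**Figure D2:**
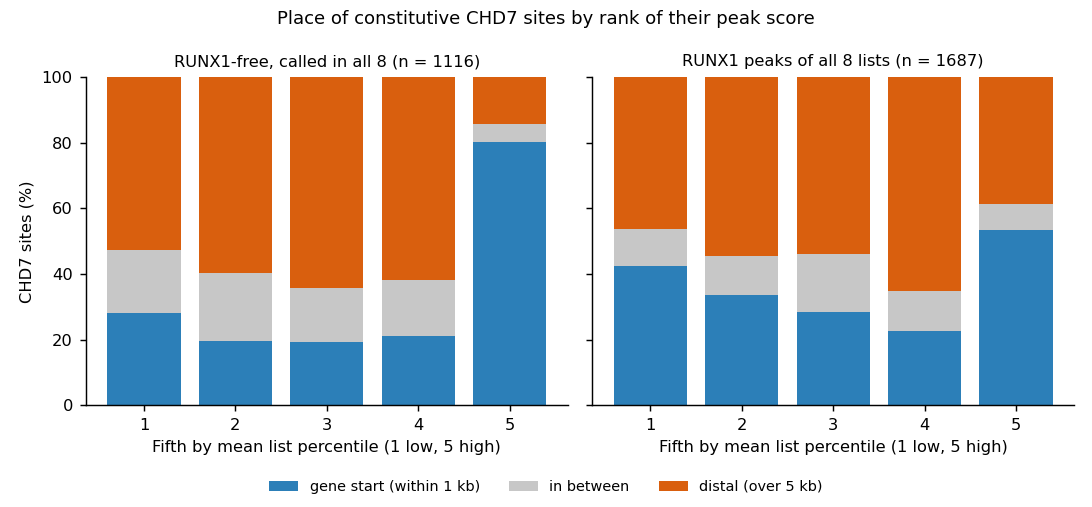
Share of constitutive CHD7 sites (vertical axis, percent) at gene starts, distal and in between, in 5 equal groups by mean list percentile (horizontal axis), for 1116 RUNX1-free sites (left) and 1687 sites with RUNX1 in all 8 lists (right). The gene-start share stands at 80.3% in the highest RUNX1-free group and at 28.1% or less in the other 4.

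Libraries ranked the promoter sites alike and the distal sites loosely. Over the 28 pairs of libraries, Spearman's rho between scores was 0.81 to 0.91 for the sites at gene starts, 0.19 to 0.48 for distal sites and 0.48 to 0.67 for all 1116. These are correlations across sites, which share libraries and peak width and are not independent replicates. The median score was 6.86 to 16.9 per library at gene starts and 3.81 to 5.59 at distal sites, beside a lowest score of 2.01 to 2.02 in the CHD7 lists. The distal median was at or above the median of all peaks in each list. Many distal sites had low scores that lay close together or were tied, and a narrow range of scores can lower rho. The 2 ranges of rho are therefore not on like terms.

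On the CHD7 side the rule took in sites with a weak call in at least 1 list and left out strong sites missing from 1 list. The 5 sites that only just qualified had a lowest list percentile of 0.0568 to 0.129. They included sites in Atrn, at the start of Capza1, which encodes an actin capping protein, and at the start of Tmem140. Just outside, the 5 strongest RUNX1-free sites called in 7 of 8 lists had mean percentiles of 95.5 to 96.7 over the lists that called them. They lay in or near Plekhm3, Akt1, Ccdc57, Klf10 and Dut, with scores of 6.98 to 34.3, and 4 of them were missing from CM +Dox replicate 1 only. Over all 1097 such sites that library missed 139, inside the range of 35 to 217 for the other libraries.

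On the RUNX1 side, 301 constitutive sites were left out because of a RUNX1 peak in 1 list. The 5 strongest of those had mean list percentiles of 99.8 to 99.9, below the 99.98 of the highest RUNX1-free site. Ddx18 scored 93.8 to 190 for CHD7 and had a RUNX1 peak only in Control +Dox replicate 1. Srrm3, Psmd1, Rint1 and Arl8b were the other 4, each with a RUNX1 peak in 1 Control library.

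Of the gene lists, that of mitochondrial ribosomal proteins had the most genes with such a site at the start. Over the 21631 coding genes of the reference, 1.97% had a RUNX1-free constitutive site within 1 kb of the start and 4.32% had one in the body or within 5 kb. Mitochondrial ribosomal proteins, the subunits of the ribosome that translates mitochondrial mRNA, had a site at the start of 5 of 20 genes (25%), namely Mrps2, Mrps10, Mrpl44, Mrpl1 and Mrpl53. None of the 20 had a site with RUNX1 in all 8 lists at the start, where 3.31% of all coding genes had one. For a list of 20 genes a count of 0 is near that background. Sites with RUNX1 in 1 to 7 lists were not counted for the gene lists. In the body or within 5 kb, 2 of the 20 (10%) had such a site, against 6.42% of all coding genes. A RUNX1-free site lay there in 6 of the 20 (30%), against 4.32%. Of 25 cytosolic ribosomal protein genes 1 (Rpl11) had a RUNX1-free site and 5 had a site with RUNX1 in all 8, against the same 3.31%.

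At Mrps2 (chr2:28467757-28468277) the scores were 51.0 and 83.8 in Control -Dox cells, 46.4 and 73.4 in Control +Dox, 46.4 and 91.3 in CM -Dox, and 62.4 and 97.5 in CM +Dox. At Mrps10 (chr17:47368280-47369326) they were 54.5 and 69.99, 50.9 and 63.2, 50.3 and 95.05, and 50.9 and 102. Within both replicate numbers CM +Dox was highest at Mrps2, but at Mrps10 in replicate 2 only. The sites of Mrpl44 and Mrpl1 ranked at mean list percentiles of 98.9 and 98.4, and that of Mrpl53, whose window is printed above, at 95.9. These sites rank high among the 1116.

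Mitochondrial respiration had a site at the start of 2 of 23 genes, Sdhb (a subunit of succinate dehydrogenase) and Uqcrc2 (a core subunit of complex III). A site with RUNX1 in all 8 lists also lay at the start of 2 of the 23. The Sdhb site scored 25.2 and 58.5 in Control -Dox cells, 26.9 and 41.04 in Control +Dox, 16.6 and 43.1 in CM -Dox, and 24.3 and 61.8 in CM +Dox. CM +Dox was highest there in replicate 2 only. Translation factors and tRNA synthetases had 2 of 27, Hars and Wars, which load histidine and tryptophan onto tRNA, and 4 of 27 with RUNX1 in all 8 lists. The Hars and Wars sites each also cover the start of a neighbour, Hars2 and Wdr25. Single genes came from the proteasome (Psmc1, 1 of 18), Mediator and RNA polymerase II (Med13, 1 of 25), histone modifiers (Setd2, which methylates histone H3 in gene bodies, 1 of 32), replication-dependent histones (H3c13, 1 of 22), and DNA repair and the p53 pathway (Trp53, 1 of 25, at a site nearest to Wrap53). The sites counted for Atr and for the chaperone gene Hsp90ab1 within 5 kb lie at the starts of their neighbours Xrn1 and Slc35b2, with mean list percentiles of 99.3 and 98.8. The Trp53 site lay 0.556 kb from a RUNX1 peak, and a different site, with RUNX1 in all 8 lists, also lay within 1 kb of a Trp53 start. A count of 1 gene in a list of 18 to 32 is near the background.

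Of the 22 lists, 13 had no gene with a RUNX1-free site at the start. These included haematopoietic transcription factors (0 of 29), myeloid differentiation (0 of 25), erythroid and megakaryocyte genes (0 of 20), lymphoid genes (0 of 19 matched), liver-specific genes (0 of 14), neural crest and CHARGE-related genes (0 of 25), splicing factors (0 of 25) and chromatin remodellers (0 of 25). At a background of 1.97% a list of this length holds fewer than 1 gene, so a count of 0 is not a result about these lists. Within the body or 5 kb, haematopoietic transcription factors had 0 of 29, and 4 of 29 a site that had RUNX1 in all 8 lists, against 4.32% and 6.42% of all coding genes; a count of 0 in 29 is near that background. Cytoskeleton and adhesion had 4 of 25 genes (16%), Itgb1, Itga4, Itga6 and Vcl, whose strongest sites were distal and had mean list percentiles of 60.6 to 68.3. In that list 7 of 25 genes (28%) had a site with RUNX1 in all 8 lists there, so a share above the background was not particular to RUNX1-free sites. No RUNX1-free site lay in or within 5 kb of Runx1, Chd7, Cbfb or Myh11.

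Genes holding several sites were mostly long. Mbnl1, a splicing regulator of 157 kb, had 5 sites in its body or within 5 kb. Pde4d, a cAMP phosphodiesterase of 1302 kb, had 4. Genes with 3 sites included the short neighbours H2ac13 and H2bc13, and the longer Mef2c (163 kb), a transcription factor of myeloid and lymphoid progenitors, Nipbl (175 kb), which loads cohesin, and Map4 (154 kb), a microtubule protein.

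The densest stretch was the histone and tRNA gene cluster of chromosome 13. It spans chr13:21715711-23934913 with 53 histone genes and 77 tRNA genes, and held 18 RUNX1-free sites among 59 constitutive CHD7 sites. Most of the 59 overlapped RUNX1 peaks of 1 to 7 lists, and 1 had RUNX1 in all 8. Over the genome 1116 of 4850 constitutive sites (23.01%) were RUNX1-free. In the same stretch lay 72 merged RUNX1 sites. Of the 18 sites 11 lay within 5 kb of a histone gene and 8 within 1 kb of a tRNA gene. Of those 11 sites, 8 lay at a gene start, and each of these had a RUNX1 peak 186 to 893 bp away. Over all RUNX1-free sites at gene starts 21.5% had a RUNX1 peak within 1 kb. The histone-gene sites are thus free of RUNX1 by overlap only. The bin of chromosome 13 from 20 to 25 Mb had 26 RUNX1-free sites, among 80 constitutive and 390 merged CHD7 sites. The median was 2 RUNX1-free sites over the 387 bins of 5 Mb that held any.

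Across the genome 19 of the 1116 sites (1.70%, 1.09 to 2.64) lay within 1 kb of a tRNA gene, 36 tRNA genes in all, of which 25 at 11 sites on chromosome 13. The share was 0.356% (0.163 to 0.774) of sites with RUNX1 in all 8 lists, 1.47% of sites with RUNX1 in 1 to 7 lists and 0.194% of all merged sites. The interval for RUNX1-free sites lies above that for sites with RUNX1 in all 8. It overlaps that for sites with RUNX1 in 1 to 7 lists (1.03 to 2.08). These intervals count each site as independent, although 11 of the 19 sites lay on chromosome 13, so they are too narrow for a comparison of the classes. The mean list percentiles of the 19 sites ran from 45.7 to 97.9, and the strongest was chr13:21709713-21711434, 4.28 kb from H2bc13, with scores of 17.4 to 45.6.

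Histone-gene sites of the chromosome 13 cluster ranked lower in CM +Dox cells, a pattern picked out after the values were seen and given without a test. The median rank among the 1116 sites of the 11 sites within 5 kb of a histone gene of the cluster was 54.0 and 57.0 in Control -Dox cells, 63.7 and 38.1 in Control +Dox, 55.2 and 57.5 in CM -Dox, and 32.8 and 18.2 in CM +Dox. Both CM +Dox values lie below the lowest of the other 6. At single sites the groups mostly overlapped, and in 2 of 11 both CM +Dox ranks were below all others, as they were at 5.11% of the 1116 sites. The 2 sites with the largest falls in rank of all 1116 are given as examples. H2ac12 (chr13:22033796-22035246) scored 5.59 and 6.55, 5.59 and 5.59, 6.55 and 7.55, and 3.81 and 2.998 in the same order. H2ac22 (chr13:21785844-21786852) scored 7.55 and 5.59, 9.66 and 7.55, 4.67 and 9.66, and 4.67 and 2.998. The nearest RUNX1 peaks lay 0.186 kb from this H2ac12 site and 0.378 kb from the H2ac22 site. A rank also depends on the scores of the other sites in a library. The H2ac22 score of 4.67 ranked at 55.2 in CM -Dox replicate 1 and at 32.8 in CM +Dox replicate 1. A lower rank is thus not always a lower score. Outside the cluster, the H3c13 site on chromosome 3 ranked at 77.2 and 18.2 in CM +Dox, against a mean of 32.2 over the other 6 libraries. The 19 tRNA-gene sites had median ranks of 38.1 and 41.0 in CM +Dox, inside the 33.0 to 46.9 of the other 6 libraries.

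The letters of the promoters differed by rank. Of windows in the reference, 310 (278 genes) overlapped a RUNX1-free constitutive site. Each motif was searched on either strand, overlapping matches included. The ETS core CCGGAAG was in 34.8% (29.7 to 40.3) of the 310 windows, 31.3% of 706 windows at sites with RUNX1 in all 8 lists, 23.6% of 6733 windows at any CHD7 site and 8.92% of all 32619 windows. TGTGGT, the RUNX core, was in 8.06% (5.52 to 11.6) of the 310, 14.3% (11.9 to 17.1) of those with RUNX1 in all 8 and 16.6% of all windows. Since the rule itself left out RUNX1 peaks, the lower share is a description.

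GGGCGG, bound by SP and KLF factors, was in 47.7% (42.2 to 53.3) of the 310 windows, 65.2% (61.6 to 68.6) of windows with RUNX1 in all 8 and 35.9% of all. CCAAT, bound by NF-Y, was in 29.4% (24.6 to 34.7), 39.7% (36.1 to 43.3) and 37.6%. TCTCGCGA, bound by ZBTB33, was in 0 of 310, with an upper bound of 1.22%, in 2.41% (1.51 to 3.82) of windows with RUNX1 in all 8 and in 1.00% of all windows, which lies under that bound. The median GC content was 57.3% and the median CpG ratio of observed to expected 0.76, against 60.7% and 0.84 with RUNX1 in all 8 and 53% and 0.39 over all windows.

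The shares of both sets of capital letters differed with rank. Another part of the CTCF consensus, CCACNAGG, which was searched with the first set of motifs, was in 4.84% (2.95 to 7.83) of the 310 windows, 4.76% of 147 windows at percentiles of 97 or more and 5.02% of all windows, so it was no more frequent at these sites. Of 43 windows at sites with a mean list percentile of 99 or more, 22 (51.2%, 36.8 to 65.4) held GGCGCT, 11 (25.6%, 14.9 to 40.2) held AGGGGGC and 8 (18.6%, 9.74 to 32.6) the ETS core. Of 104 windows at percentiles of 97 to 99, 27.9% (20.2 to 37.2) held GGCGCT, 6.73% AGGGGGC and 49.0% (39.6 to 58.5) the ETS core. Windows under 97 were at 24.5%, 11.7% and 30.1%. Over the 310 windows AGGGGGC was in 11.9%, below the 16.6% of windows with RUNX1 in all 8 lists. Over all 32619 windows the shares were 15.5%, 10.7% and 8.92%, and in 68 windows of percentile 99 or more with RUNX1 in all 8 lists they were 32.4%, 11.8% and 38.2%. The CTCF letters were picked from the 12 strongest windows, 10 of which hold them, so the share at 99 or more is a description of these windows. A match of letters is not a binding site, and CTCF and ETS proteins were not measured here.

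**Figure D3:**
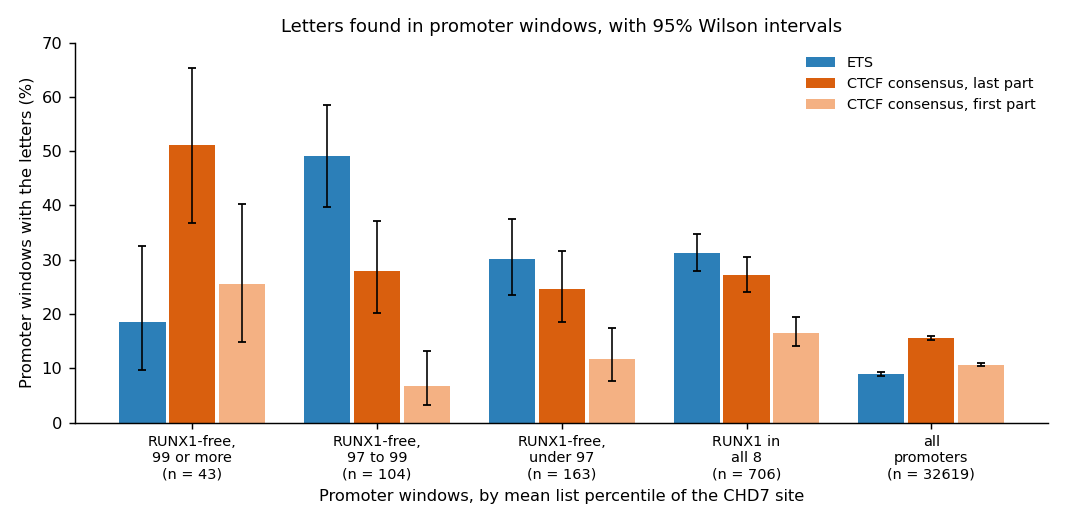
Percent of 300-base promoter windows (vertical axis, bars, with 95% Wilson intervals) that hold the ETS core and the last (GGCGCT) and first (AGGGGGC) parts of the CTCF consensus, for RUNX1-free sites in 3 ranges of mean list percentile, sites with RUNX1 in all 8 lists, and all windows (horizontal axis). GGCGCT is at 51.2% in the highest range and the ETS core at 49.0% in the next.

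No difference of the sites as a group between CM +Dox and the other libraries passed its test. The median percentile rank of the 1116 sites among the 4850 constitutive sites was 46.9 and 35.3 in Control -Dox cells, 41.3 and 40.4 in Control +Dox, 41.0 and 35.8 in CM -Dox, and 45.5 and 43.2 in CM +Dox. CM +Dox averaged 44.3 ± 1.64 (SD, n = 2) against 40.1 ± 4.26 (SD, n = 6), a difference of 4.21 percentile points. The two-sided exact permutation test over libraries gave p = 0.179, or 0.357 with Benjamini-Hochberg adjustment over 4 tests; the smallest p this design allows is 0.0357. The value turned to -0.985 when lists were limited to peaks at or above their own median score.

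The share of the 1116 sites overlapping one of the 8159 highest peaks of a library was 61.8% ± 3.87 (SD, n = 2) in CM +Dox and 65.8% ± 6.48 (SD, n = 6) in the others (exact permutation p = 0.464, adjusted 0.464). The change with doxycycline in the median rank was 5.94 points in CM cells and -0.232 in Control cells. The difference of 6.17 had an exact permutation p of 0.389, adjusted 0.464, and 0.0556 is the smallest possible there.

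The lead of gene-start sites over distal ones was smallest in CM +Dox cells. The median rank among the 1116 sites of the 376 at gene starts exceeded that of 606 sites more than 5 kb from any start by 38.8 and 33.5 points in Control -Dox cells, 35.7 and 39.9 in Control +Dox, 33.1 and 34.3 in CM -Dox, and 21.6 and 33.0 in CM +Dox. The means were 27.3 ± 8.08 (SD, n = 2) and 35.9 ± 2.82 (SD, n = 6), a difference of -8.58. Both CM +Dox values lie below the other 6, but replicate 2 does so by a narrow margin (33.0 against 33.1). The exact permutation p was 0.0357, the smallest possible, and 0.143 after adjustment over the 4 tests, so the difference did not pass. Sites chosen again without CM +Dox replicate 1 gave -5.06 (exact permutation p = 0.143), and without CM +Dox replicate 2 -15.7 (p = 0.143). With 1 CM +Dox library left against 6, 0.143 is the smallest p possible, and the lone library adds no spread of its own.

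**Figure D4:**
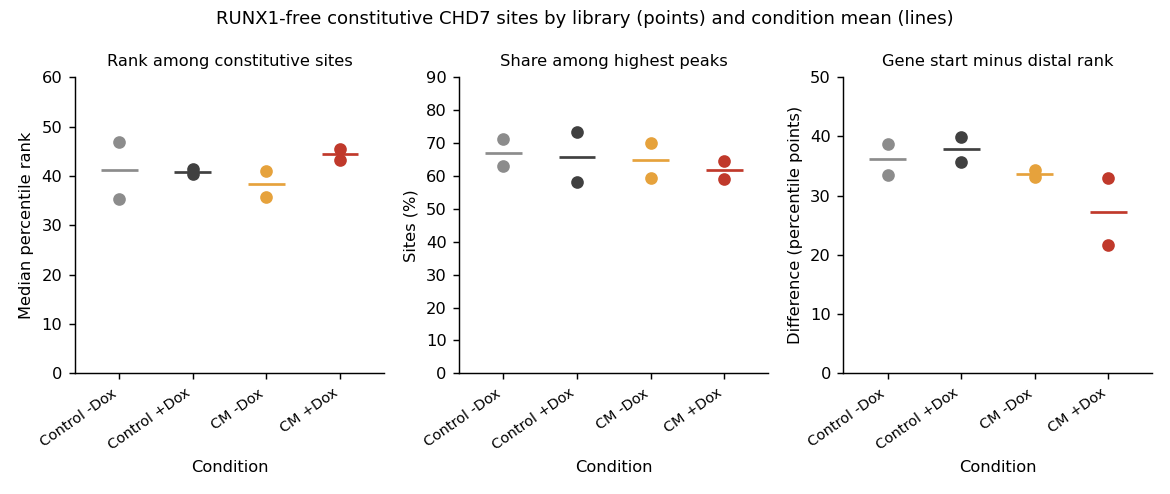
Values of each of the 8 CHD7 libraries (points) with the mean of each condition (lines): the median percentile rank of the 1116 sites among constitutive sites (left), the percent of them among the 8159 highest peaks of a list (middle), and the rank of gene-start sites minus that of distal sites in percentile points (right). CM +Dox lies within the other libraries at left and middle and lowest at right, where its 2 libraries are at 21.6 and 33.0.

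Single sites whose rank separated CM +Dox from the other 6 libraries were counted beside all constitutive sites. Ranks here are percentiles among the 4850. Both CM +Dox ranks lay above the other 6 at 84 of the 1116 sites (7.53%), against 6.23% of all 4850. They lay below at 45 (4.03%), against 6.37%. With ranks taken among the 1116 sites alone, the counts were 62 above (5.56%) and 57 below (5.11%), so the imbalance of the 2 directions depends on the ranking. The largest difference in rank among the 1116 sites was 63.2 points at a site near Spa17, a sperm surface protein gene, which scored 2.72 and 2.75, 3.47 and 3.52, 3.62 and 3.52, and 7.98 and 13.5 in CM +Dox. The next were sites in Uhrf1bp1l, at Kpna6, which encodes a nuclear import receptor, in Nsun7 and in Stim1, the calcium sensor of the endoplasmic reticulum (47.4 to 51.8 points). The lowest values were at H2ac12 (-50.4), H2ac22 (-48.7), Tmem140, Deptor (an inhibitor of mTOR) and Ywhaz. These 10 sites were picked for their size and have no test.

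A difference between the CM and Control libraries followed 2 parts of the genome, with or without doxycycline. It was noticed in the data and is given as values. The median rank of the 25 RUNX1-free sites on chromosome 19 was 24.3 to 31.3 in the 4 Control libraries and 56.9 to 68.5 in the 4 CM libraries, a difference of 35.2 points. Over the other chromosomes the difference ran from -5.69 to 5.47. The 7 sites on chromosome 14 beyond 50 Mb had median ranks of 85.1 to 89.2 in Control and 33.9 to 71.6 in CM libraries, and 15 sites on the first 50 Mb of that chromosome had 35.6 to 45.3 and 36.4 to 56.9.

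All 4 CM ranks lay above all 4 Control ranks at 10 of the 25 sites on chromosome 19, at 27 of the 1116 sites (2.42%), and at 3.24% of the 4850 constitutive sites. They lay below at 5 of the 7 sites on chromosome 14 beyond 50 Mb, at 26 of the 1116 (2.33%), and at 2.62% of the 4850. At Dhrs4 on chromosome 14, a gene for a reductase of retinoids, the scores were 58.8 and 136 in Control -Dox cells, 70.7 and 138 in Control +Dox, 34.5 and 63.2 in CM -Dox, and 25.4 and 57.4 in CM +Dox. At Tmem216 on chromosome 19, a gene of the ciliary base, they were 16.4 and 20.4, 9.25 and 11.3, 23.5 and 33.9, and 41.9 and 55.9. Within each replicate number both genes separate the constructs.

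The same 2 parts stood out for other sites and the other antibody. CHD7 sites with RUNX1 differed by 25.5 points on chromosome 19 (136 sites) and by -11.8 on chromosome 14 beyond 50 Mb (19 sites), and RUNX1 sites called in all 8 RUNX1 lists by 18.6 (202 sites) and -27.5 (35 sites). Chromosome 19 held 2.27% to 2.86% of the CHD7 peaks of Control lists and 7.85% to 8.29% of those of CM lists, and 2.83% to 3.18% against 4.57% to 5.22% of RUNX1 peaks. What sets this apart was not tested. Leaving out both parts kept 1084 sites and gave -10.2 for the gene-start lead and 4.95 for the median rank.

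**Figure D5:**
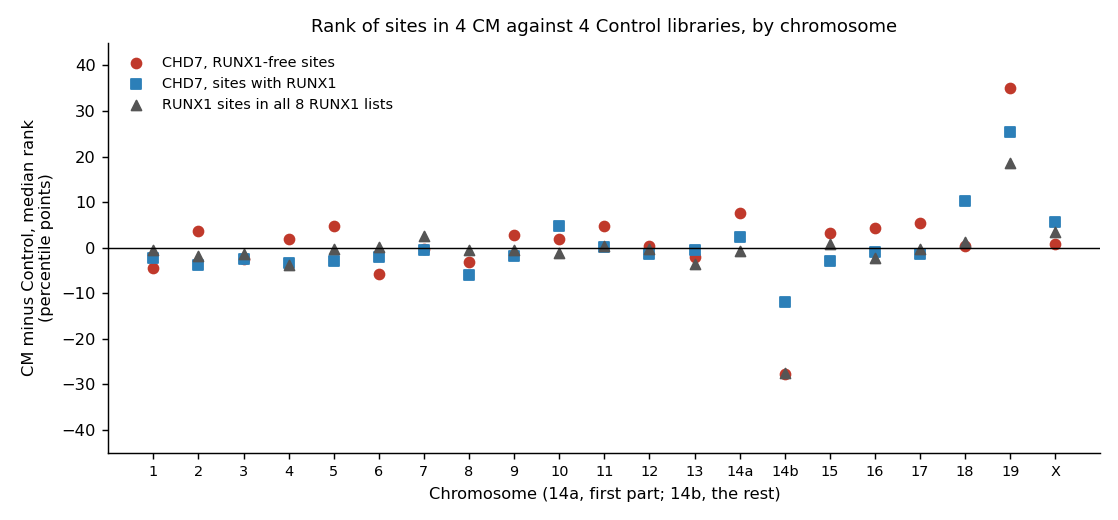
Difference between the means of 4 CM and 4 Control libraries in median percentile rank (vertical axis, percentile points) by chromosome (horizontal axis; chromosome 14 is split at 50 Mb), for RUNX1-free constitutive CHD7 sites, constitutive CHD7 sites with RUNX1, and RUNX1 sites in all 8 RUNX1 lists. Chromosome 19 lies above and the later part of chromosome 14 below all other chromosomes for each of the 3 kinds of site.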

How the data were processed

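ChIP-seq peak lists of 16 libraries were used (8 CHD7, 8 RUNX1; 2 replicates in each of 4 conditions). The submitters' processing notes name mm10, Bowtie2 2.0.6 and MACS2 2.0.10. The authors deposited 1 score per peak, a p-value on the −log10 scale, with thresholds in the peak names of 0.01 (CHD7), 1e-09 (5 RUNX1 lists) and 1e-07 (3 RUNX1 lists). Depth is not given in the sources used here, so weak sites could not be told from missed ones.

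Peaks were merged, ranked and compared with numpy 2.4.6, pandas 2.3.3 and scipy 1.17.1, in code tested on simulated data (6 checks passed). Tests used 1 value per library: two-sided exact permutation over 28 choices of 2 of 8 libraries (36 for the doxycycline interaction). The labels do not tell whether replicates were grown apart, and p-values may then measure technical spread only. Genes came from RefSeq GRCm38.p6, with starts for 17274 of 21631 coding genes; both ends stood in for the other 4357. Of 518 list genes 517 matched.

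Members, gene lists and motifs were chosen with earlier results of these data known. Named were the 10 strongest gene-start and 10 strongest distal sites, 5 at each edge of the rule, up to 4 genes per list, 5 genes with most sites, the 5 largest rank differences either way, and Runx1, Chd7, Cbfb and Myh11; other names were chosen after their values were seen. Alternatives were other overlap, threshold, width and distance rules, a replicate block, and leaving out each library. Some results are not reported here.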

Additional observations from a re-analysis of the deposited data

Results flagged for a closer look

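The lead of gene-start over distal sites in CM +Dox replicate 1 of CHD7, 21.6 percentile points, lies far from the other 7 CHD7 libraries, whose lowest value is 33.0. Of 6 such checks this was the only 1 met. Chance alone meets a single check about 1 time in 20. The 6 checks share libraries, and the rate of at least 1 met among them is higher than that. No explanation was tested.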

How the results depend on the processing

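The number of sites was 411 with CHD7 peaks at or above the median score of their own list and 546 with the same number of peaks in every list, since both keep fewer peaks. It was 980 to 1143 under the other rules on overlap, threshold and width, and 1126 to 1335 when a library was left out. The share at gene starts was 52.1% and 44.7% under the first 2 settings, 30.1% with no RUNX1 peak within 1 kb, 45.7% with a distance of 5 kb, 28.4% with annotated starts only (an alternative chosen after seeing the data), and 30.6% to 35.8% without 1 library. The median rank difference reversed to -0.985 under the median score limit; the cause was not tested. Without 1 library it was 3.48 to 8.53. The doxycycline difference of differences, the share among highest peaks and the gene-start lead kept their sign under all alternatives run, with adjusted p from 0.143 to 1. Without 1 library the difference of differences ran from 1.10 to 14.6 (6.17 with all) and the share difference from -6.93 to -1.46 (-4.05 with all), so their size rests on single libraries. The gene-start lead ranged from -15.7 to -2.30; leaving out chromosome 19 and chromosome 14 beyond 50 Mb was also chosen after seeing the data. Replicate numbers did not pair the libraries in rank. The difference in rank of a site between replicates 1 and 2 correlated at -0.0228 to 0.0465 between conditions, across the constitutive sites. With the replicate block the differences were the same (4.21, -4.05 and -8.58), with exact permutation p of 0.125, 0.375 and 0.0625. Unknown depth limits every list: a site missing from 1 CHD7 list or overlapped by 1 RUNX1 peak leaves the set.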
